A study of Homo sapiens with 22 samples.

Results

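Transcripts of 10 Notch pathway genes were followed across 22 RNA sequencing libraries of IMR90 cells, an established line of human fetal lung fibroblasts. The genes were picked by symbol from the 60664 gene rows of the count files, and comprised the ligands DLL4, JAG1 and JAG2, the receptors NOTCH1, NOTCH2 and NOTCH3, and the target genes HES1, HES4, HEY1 and HEYL. Cells received 10 nM of a non-targeting control siRNA or of siRNA to MSK2, the nuclear kinase encoded by RPS6KA4, every 24 hours for 72 hours in all. Every culture was without serum for the last 24 hours. With each siRNA, 4 libraries came from cells given PBS, 4 from cells given 750 pM epidermal growth factor (EGF) for 30 min, and 3 from cells given it for 60 min, and the labels time the PBS groups at 60 min. All came from 1 line, and the groups with PBS serve as controls for both times of EGF, so these comparisons share libraries. The design asks which of the genes respond to EGF, which differ with MSK2 knockdown, and whether the response to EGF differs between the siRNAs.

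Notch signaling passes between touching cells. A Delta or Jagged ligand on one cell engages a Notch receptor on its neighbor, ADAM proteases and then gamma-secretase cut the receptor, and the freed intracellular domain joins the DNA binding protein RBPJ and a Mastermind coactivator at target genes. The HES and HEY genes are the best known targets and encode basic helix-loop-helix repressors, and HES1 is also known to respond to other signals and to repress its own promoter. DLL4 is best known as the ligand of sprouting endothelium, while JAG1, NOTCH2 and NOTCH3 are commonly found in mesenchymal cells.

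The promoters of HES1, HES4 and DLL4 are shown because DLL4 and HES1 carried most of the calls described here, and HES4 is set beside HES1 as a second HES gene. Each run is the 250 bases before the annotated start in the RefSeq promoter table of GRCh38.p14, 5′ to 3′ on the strand of the gene. The windows of 9 of the 10 members, all but HEY1, were searched. They lie at chr3:194135898-194136147 on the plus strand (HES1), chr1:1000098-1000347 on the minus strand (HES4) and chr15:40929090-40929339 on the plus strand (DLL4). The GENCODE coordinates of HES4, given further below, end at 1000172 and so reach into its window. The start of HES4 thus differs between RefSeq and GENCODE, and its distances here are to the RefSeq start. Capitals mark TGGGAA, the core of the RBPJ motif, searched on both strands.
HES1: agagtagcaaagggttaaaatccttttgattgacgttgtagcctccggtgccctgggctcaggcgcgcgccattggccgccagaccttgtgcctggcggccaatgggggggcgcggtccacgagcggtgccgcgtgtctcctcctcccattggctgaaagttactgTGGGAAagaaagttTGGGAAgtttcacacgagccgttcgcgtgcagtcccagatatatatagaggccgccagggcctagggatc
HES4: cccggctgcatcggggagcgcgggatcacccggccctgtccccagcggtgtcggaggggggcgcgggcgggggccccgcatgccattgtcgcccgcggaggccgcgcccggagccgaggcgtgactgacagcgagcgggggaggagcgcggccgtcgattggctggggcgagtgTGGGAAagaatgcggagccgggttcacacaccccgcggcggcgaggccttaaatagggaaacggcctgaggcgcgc
DLL4: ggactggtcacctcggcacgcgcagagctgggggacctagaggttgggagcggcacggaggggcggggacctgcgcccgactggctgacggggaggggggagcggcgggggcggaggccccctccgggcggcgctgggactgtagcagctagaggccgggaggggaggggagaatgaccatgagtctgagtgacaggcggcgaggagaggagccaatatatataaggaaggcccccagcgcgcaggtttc

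HES1 held 2 copies of TGGGAA, which began 84 and 70 bases before the start, and HES4 held 1, which began 76 bases before it. HEYL, which had few counts, also held 2 copies, and the core was not found in the windows of DLL4 and the other 5 members searched. Of 27305 human promoters searched over the same 250 bases, 21.1% held at least 1 copy on either strand and 2.92% held 2 or more, so a single copy is common. The letters CACNAG, an N box of the kind that HES proteins bind, occurred 3 times before HES1 and once before NOTCH3. At least 1 copy occurred in 32% of promoters, and 2 or more in 6.28%. TGACG, one part of the cyclic AMP response element to which the MSK substrate CREB binds, occurred once each before HES1, DLL4, HEYL and JAG2 and at least once in 21.7% of promoters. Neither TGAGTCA, the AP-1 motif, found in 4.16% of promoters, nor the CArG box, found in 1.14%, occurred in these 3 windows. These matches describe letters and no binding was measured.

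Levels were read from gene counts of 7893209 to 22244216 per library, with a median of 15037489.5. They are given as CPM, reads relative to a library size scaled by the trimmed mean of M values (TMM), and between genes as CPM per kilobase of annotated exon (RPKM). Of the 10 members, 6 passed the filter of more than 10 CPM in at least 2 libraries, and were tested with edgeR's quasi-likelihood test among 9770 genes. They were DLL4, JAG1, NOTCH1, NOTCH2, NOTCH3 and HES1. JAG2, HES4, HEY1 and HEYL did not exceed 10 CPM in any library, and are described by their values and, as an alternative, by a fit without the filter. An adjusted p under 0.05 was taken as a call. At each treatment RPS6KA4 did not overlap between the siRNAs, and with MSK2 siRNA its mean was lower by 87.7% after PBS, 85.6% at 30 min and 86.3% at 60 min of EGF. Among markers of cell types, all 12 fibroblast genes were tested, while CDH5 and PECAM1, which define endothelium, did not exceed 0.355 and 1.60 CPM, and 8 leukocyte markers summed to at most 2.00 CPM in any library. Some markers of other types did pass the filter. The endothelial marker TEK reached 61.1 CPM, and the epithelial KRT18, CDH1 and KRT8 reached 52.4, 14.7 and 13.4 CPM. MCAM, CSPG4 and ACTA2, of pericytes and smooth muscle, reached 64.7, 122 and 120 CPM. In bulk RNA, fewer cells carrying a transcript and less of it per cell cannot be told apart.

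Per kilobase of exon, the resting control cells held most transcript for NOTCH3 (6.57 ± 2.23 RPKM, SD, n = 4), HES4 (6.42 ± 0.85), NOTCH2 (5.91 ± 1.72) and JAG1 (5.74 ± 0.64). The ranges of neighbors in that order overlapped, so these 4 were not separable by level. DLL4 (2.05 ± 0.24 RPKM) and HES1 (1.72 ± 0.22) followed below them and overlapped each other. NOTCH1 stood at 1.18 ± 0.33 RPKM, and HEY1, JAG2 and HEYL were the lowest at 0.449, 0.334 and 0.0157 RPKM. The exon length of HEY1 in the annotation covers the whole gene, which lowers its RPKM. After 60 min of EGF with control siRNA, HES1 was first in the order at 9.65 ± 0.60 RPKM, above every library's value for JAG1, the next gene, at 6.69 ± 0.44. DLL4 then stood at 4.85 ± 0.41 RPKM, a level whose range overlapped that of HES4. With MSK2 siRNA and PBS, DLL4 was at 0.438 ± 0.091 RPKM and its range overlapped those of its neighbors HEY1 and JAG2.

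**Figure D1:**
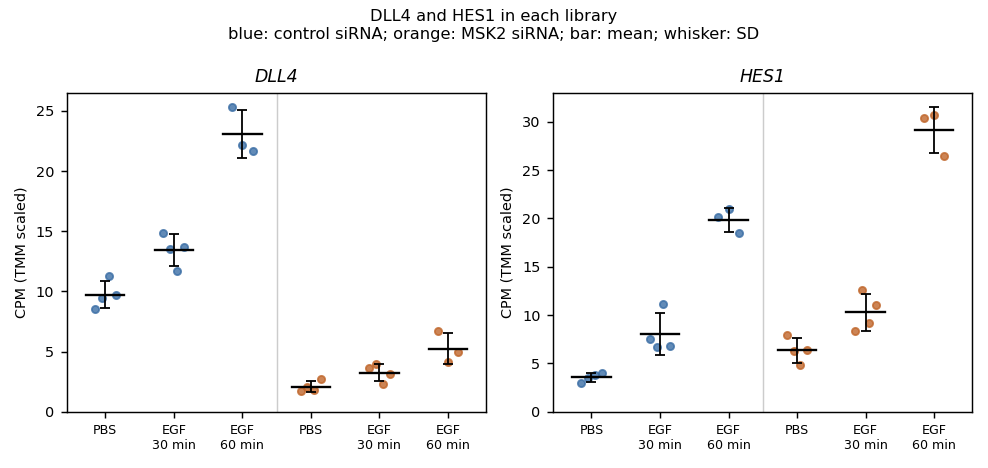
Levels of DLL4 and HES1 in each of 22 libraries as TMM-scaled CPM, with control siRNA in blue, MSK2 siRNA in orange, the mean as a bar and the SD as a whisker. With control siRNA both genes were highest at 60 min of EGF, and with MSK2 siRNA DLL4 was at or below 6.68 CPM in every library while HES1 reached 30.7 CPM.

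DLL4 rose with EGF and was lower with MSK2 siRNA at every treatment, including PBS. DLL4 (ENSG00000128917, chr15:40929340-40939073, plus strand, GRCh38) was at 8.51, 9.48, 11.3 and 9.67 CPM in the 4 libraries with control siRNA and PBS. The 4 libraries at 30 min of EGF gave 14.9, 13.6, 11.7 and 13.7 CPM, and the 3 at 60 min gave 25.3, 22.2 and 21.7 CPM. The 3 groups did not overlap, and the 60 min libraries were the highest of the series.

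The log2 change of DLL4 at 30 min was 0.47 (SE 0.16, edgeR adjusted p = 0.562), which did not pass, although every treated library was above every PBS library. Its log2 change at 60 min was 1.25 (SE 0.17) with an adjusted p of 6.2e-06, from a mean of 9.73 ± 1.15 CPM (SD, n = 4) to 23.1 ± 2.0 CPM (n = 3), or 2.37-fold. Between 30 and 60 min it rose by 0.78 (SE 0.16, adjusted p = 0.00652). That last call was lost without replicate 1 of the 60 min group, where the change was 0.71 with an adjusted p of 0.0543. It passed in 14 of 15 alternatives.

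With MSK2 siRNA, DLL4 was at 1.74, 2.06, 1.82 and 2.697 CPM after PBS. At 30 min of EGF the values were 3.62, 3.97, 2.32 and 3.10 CPM, and at 60 min 6.68, 4.11 and 4.95 CPM. The libraries at 60 min lay above those with PBS, the 30 min and PBS groups overlapped, and every one of the 11 libraries was below the lowest library with control siRNA, which had received PBS.

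Against control siRNA, the fitted log2 change of DLL4 was -2.19 after PBS (SE 0.19, adjusted p = 9.21e-10), -2.04 at 30 min of EGF (SE 0.18, adjusted p = 7.18e-10) and -2.15 at 60 min (SE 0.19, adjusted p = 2.78e-09). In mean CPM these were 78.6%, 75.8% and 77.3% lower, and the groups did not overlap in any of the 3 comparisons. The lower level was thus present in cells that had not received EGF. Within cells given MSK2 siRNA, DLL4 rose 2.52-fold at 60 min (log2 change 1.29, SE 0.21, adjusted p = 0.000147), while the change at 30 min was 0.61 (SE 0.21, adjusted p = 0.289).

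The difference between the siRNAs in the log2 response of DLL4 was 0.14 at 30 min (95% interval -0.40 to 0.68, adjusted p = 0.909) and 0.04 at 60 min (-0.52 to 0.60, adjusted p = 1). Neither passed, and the intervals leave room for responses that differ by up to 0.68 and 0.60 on the log2 scale. On the CPM scale the mean gain over PBS at 60 min was from 2.08 to 5.24 CPM with MSK2 siRNA, against 9.73 to 23.1 CPM with control siRNA. DLL4 counts with MSK2 siRNA were 22 to 84 per library, against 75 to 381 with control siRNA.

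The 10 endothelial markers summed to 54.1 to 68.3 CPM per library with control siRNA and 19.2 to 30.0 CPM with MSK2 siRNA, a difference that lay mostly in 1 gene. That gene was TEK, the angiopoietin receptor, the only 1 of these markers to pass the filter. TEK made up most of the sum, at 49.0 to 61.1 CPM with control siRNA and 11.1 to 22.6 CPM with MSK2 siRNA. Its log2 change after PBS was -1.78 (SE 0.15, adjusted p = 6.35e-10), and with EGF in control cells it was -0.04 at 60 min (adjusted p = 0.954). The other 9 markers each stayed at or below 5.30 CPM (VWF), and their changes were not tested. The 12 fibroblast markers summed to 43741 to 58248 CPM with control siRNA and 55461 to 63976 CPM with MSK2 siRNA, a sum carried mostly by the collagens COL1A1, COL1A2 and COL3A1. Gene by gene, with MSK2 siRNA 2 of the 12 were called higher and 6 lower after PBS, 3 and 4 at 30 min, and 2 and 5 at 60 min. Of all 9770 genes tested, 24.8%, 30.1% and 19.4% were called in these 3 comparisons. The mitochondrial share of counts was 2.04% to 2.85% with MSK2 siRNA and 1.45% to 1.95% with control siRNA after PBS, 1.54% to 2.07% and 1.46% to 2.07% at 30 min, and 1.82% to 1.95% and 1.16% to 1.59% at 60 min. It did not overlap between the siRNAs after PBS and at 60 min, and overlapped at 30 min. The part of these marker levels and of this share in the differences of DLL4 and the other members between siRNAs was not tested.

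JAG1, the Jagged ligand with the highest level here, did not pass in any comparison. JAG1 (ENSG00000101384, chr20:10637684-10673999, minus strand) was at 48.1 to 61.8 CPM after PBS, 50.8 to 62.0 CPM at 30 min and 57.8 to 66.0 CPM at 60 min of EGF with control siRNA. With MSK2 siRNA the ranges were 40.1 to 50.6, 51.9 to 67.6 and 53.0 to 56.5 CPM. The libraries with MSK2 siRNA and EGF at either time were all above those with PBS, and the log2 change was 0.35 at 30 min (SE 0.10, adjusted p = 0.104) and at 60 min 0.25 (SE 0.10, adjusted p = 0.424). At 60 min of EGF every library with MSK2 siRNA was below every one with control siRNA, with a log2 change of -0.20 (SE 0.11, adjusted p = 0.234). The first of these passed in the pairwise exact test (adjusted p = 0.0458), in DESeq2 (0.0407) and without the filter (0.0498), and over all its alternatives the adjusted p ran from 0.0407 to 0.547. A long noncoding RNA on the other strand shares 306 exon bases with JAG1, and reads from the 2 cannot be told apart in libraries that do not mark strand.

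JAG2, the second Jagged ligand, was low, with 21 to 71 counts per library. JAG2 (ENSG00000184916, chr14:105140982-105168824, minus strand) ranged from 1.60 to 3.35 CPM with control siRNA and from 2.40 to 4.28 CPM with MSK2 siRNA. Without the filter no change of JAG2 passed, and its largest log2 change was 0.49 (SE 0.27, adjusted p = 0.739), at 30 min of EGF with MSK2 siRNA, where every library was above those with PBS. A noncoding RNA shares 469 of its exon bases on the same strand.

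**Figure D2:**
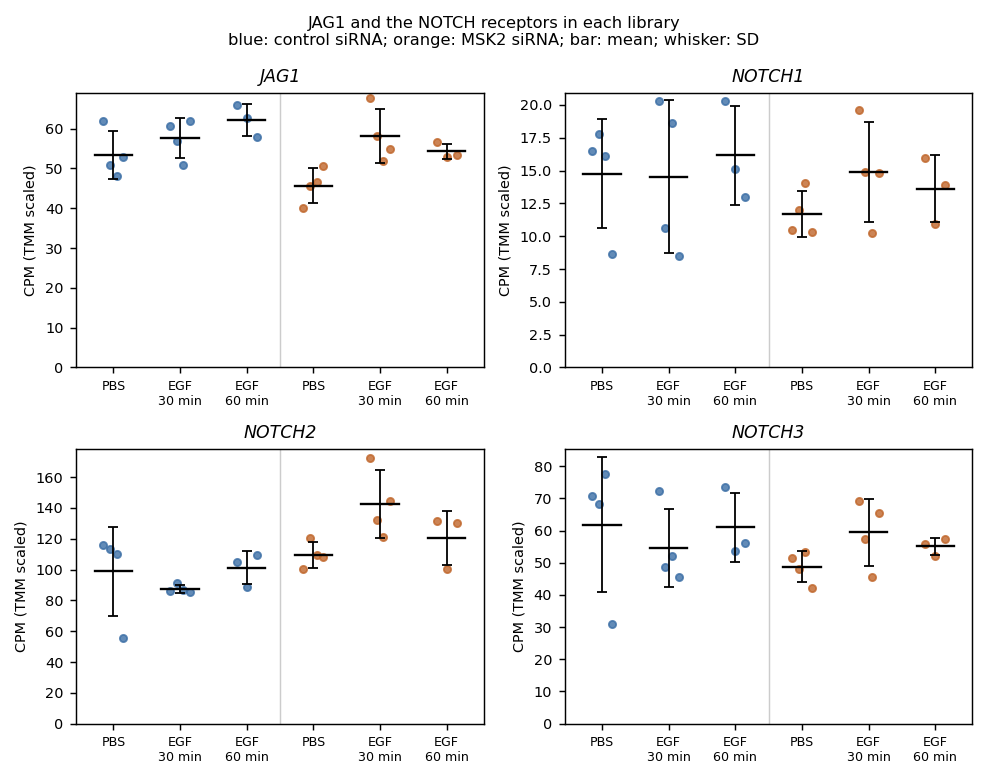
Levels of JAG1, NOTCH1, NOTCH2 and NOTCH3 in each library as TMM-scaled CPM, drawn as for DLL4 and HES1, with axes from 0. NOTCH2 with MSK2 siRNA at 30 min of EGF lay at 121 to 172 CPM, above the 85.5 to 91.4 CPM of control siRNA, and 1 library with control siRNA and PBS was low for NOTCH1, NOTCH2 and NOTCH3.

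Among the receptors, NOTCH2 was higher with MSK2 siRNA at 30 min of EGF, and no other receptor comparison passed in the fit with the filter. NOTCH2 (ENSG00000134250, chr1:119911553-120100779, minus strand) was at 86.4, 91.4, 86.7 and 85.5 CPM in the control libraries at 30 min. With MSK2 siRNA at the same time it was at 172, 132, 121 and 144 CPM. The groups did not overlap, and the log2 change was 0.70 (SE 0.14, adjusted p = 0.000454), or 1.63-fold in mean CPM. It passed in each of 16 alternatives, with log2 changes of 0.60 to 0.77.

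After PBS, NOTCH2 was at 116, 113, 110 and 55.8 CPM with control siRNA and at 100, 121, 110 and 108 CPM with MSK2 siRNA. The groups overlapped, and replicate 4 of the control group was far below the other 3. With MSK2 siRNA, the 30 min libraries were all above those with PBS, with a log2 change of 0.38 (SE 0.14, adjusted p = 0.401). It passed without the filter, where the SE was smaller (0.41, SE 0.09, adjusted p = 0.00367). Its change between siRNAs was 0.14 after PBS (SE 0.14, adjusted p = 0.545) and 0.25 at 60 min (SE 0.17, adjusted p = 0.323). The difference between siRNAs in its response to 30 min of EGF was 0.57 (95% interval 0.15 to 0.99, adjusted p = 0.713), which did not pass. Without that PBS library, the shallowest of the series at 7893209 counts, it was 0.75 with an adjusted p of 0.0168, and without the filter on low counts 0.59 with an adjusted p of 0.0154. The SE of this difference was 0.20 with the filter and 0.13 without it. With edgeR's own milder filter, filterByExpr, which kept 15477 genes, 0 members were called for it.

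NOTCH2 has near-identical partial copies, the NOTCH2NL genes. Each of 4 NOTCH2NL rows held 0 to 9 counts in any library, against 433 to 2860 for NOTCH2, and reads that fit more than 1 copy may have been split or dropped in counting.

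NOTCH1 (ENSG00000148400, chr9:136494433-136546048, minus strand), the receptor with the lowest level per kilobase of the 3, did not pass in any comparison with or without the filter. Its libraries ranged from 8.51 to 20.3 CPM with control siRNA and from 10.2 to 19.6 CPM with MSK2 siRNA. The groups overlapped in each of the 8 pairwise comparisons, with log2 changes from -0.37 (SE 0.24) after PBS between siRNAs to 0.35 (SE 0.24) at 30 min of EGF with MSK2 siRNA, and adjusted p of 0.293 and 0.618.

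NOTCH3 (ENSG00000074181, chr19:15159038-15200995, minus strand) was at 70.7, 68.1, 77.5 and 30.9 CPM after PBS with control siRNA, and at 51.5, 48.1, 53.2 and 42.3 CPM with MSK2 siRNA. The ranges overlapped only through the low control library, replicate 4. The log2 change was -0.36 (SE 0.18, adjusted p = 0.158) with all libraries and -0.56 (adjusted p = 0.00242) without replicate 4. Without the filter it was -0.38, with a smaller SE of 0.10 (adjusted p = 0.00746). At 30 and 60 min of EGF the changes between siRNAs were 0.12 (SE 0.18, adjusted p = 0.635) and -0.15 (SE 0.21, adjusted p = 0.684).

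HES1 rose with EGF with either siRNA, and it was higher, not lower, with MSK2 siRNA after PBS and at 60 min. HES1 (ENSG00000114315, chr3:194136148-194138732, plus strand), whose promoter with its pair of RBPJ cores is printed above, was at 2.96, 3.43, 3.82 and 3.99 CPM after PBS with control siRNA. At 30 min of EGF the libraries gave 7.48, 6.64, 11.2 and 6.84 CPM, and at 60 min 20.2, 20.9 and 18.5 CPM. The 3 groups did not overlap, and replicate 3 at 30 min was above the other 3 of its group.

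The log2 change of HES1 was 1.21 at 30 min (SE 0.19, adjusted p = 0.000256) and 2.51 at 60 min (SE 0.19, adjusted p = 8.36e-11), or 2.26-fold and 5.59-fold in mean CPM. Between 30 and 60 min it rose by a further 1.297 (SE 0.18, adjusted p = 1.44e-05). These 3 calls held in every alternative run, with a log2 change of 0.998 to 1.29 at 30 min and 2.43 to 2.55 at 60 min.

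With MSK2 siRNA, HES1 was at 7.98, 6.32, 4.81 and 6.36 CPM after PBS. At 30 min of EGF it was at 8.38, 12.6, 9.16 and 11.04 CPM, and at 60 min at 30.4, 30.7 and 26.4 CPM. The 3 treatment groups did not overlap, and the PBS libraries were all above those with control siRNA and PBS.

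Against control siRNA, the log2 change of HES1 was 0.87 after PBS (SE 0.19, adjusted p = 0.00118), 0.35 at 30 min (SE 0.17, adjusted p = 0.125, ranges overlapping) and 0.55 at 60 min (SE 0.18, adjusted p = 0.0289). In mean CPM the first and last were 1.79-fold and 1.47-fold. The call at 60 min was lost without control replicate 1 (adjusted p = 0.0683) or 3 (0.102) and without MSK2 siRNA replicate 1 (0.0753) or 2 (0.0949), while the change stayed between 0.51 and 0.63 on leaving out any 1 library. At 30 min the change was 0.56 with an adjusted p of 0.0149 without control replicate 3, the high library named above.

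Within cells given MSK2 siRNA, the log2 change of HES1 was 2.19 at 60 min of EGF (SE 0.18, adjusted p = 2.95e-10), or 4.58-fold. At 30 min it was 0.69 (SE 0.17, adjusted p = 0.0558), just short of the threshold with no overlap of the groups, and it passed in 6 of 16 alternatives, with adjusted p from 0.00493 to 0.313. The difference between siRNAs in the log2 response was -0.52 at 30 min (95% interval -1.05 to 0.01, adjusted p = 0.713) and -0.32 at 60 min (-0.86 to 0.23, adjusted p = 1), so neither passed. DLL4 and HES1, ligand and target, therefore shared the direction of change with EGF and had opposite directions with MSK2 siRNA after PBS and at 60 min.

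**Figure D3:**
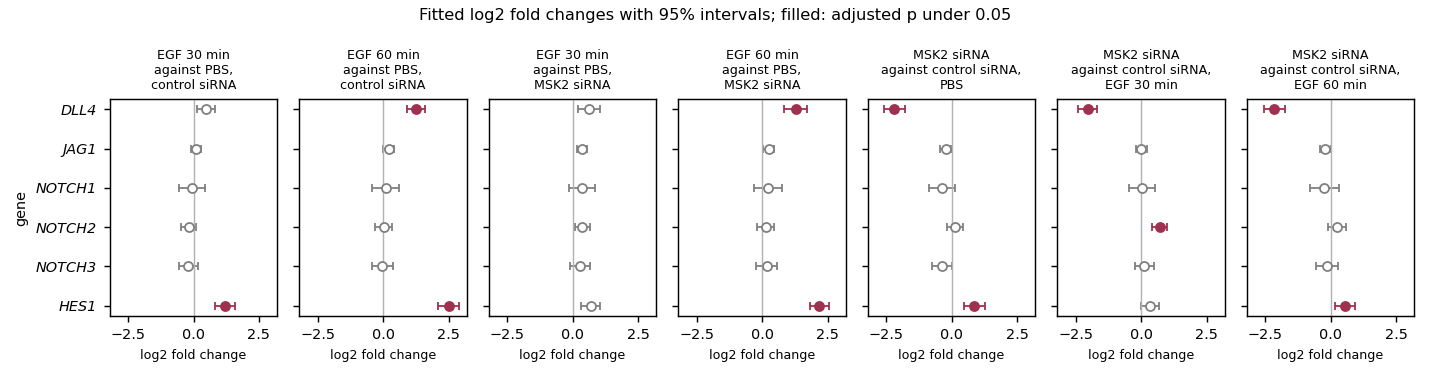
Fitted log2 fold changes (x axis) of the 6 tested members (y axis) in 7 comparisons, with 95% intervals; filled symbols have an adjusted p under 0.05. DLL4 lies near -2 in each comparison of MSK2 siRNA with control siRNA while HES1 lies at 0.35 to 0.87, and both lie above 1 at 60 min of EGF with either siRNA.

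**Figure D4:**
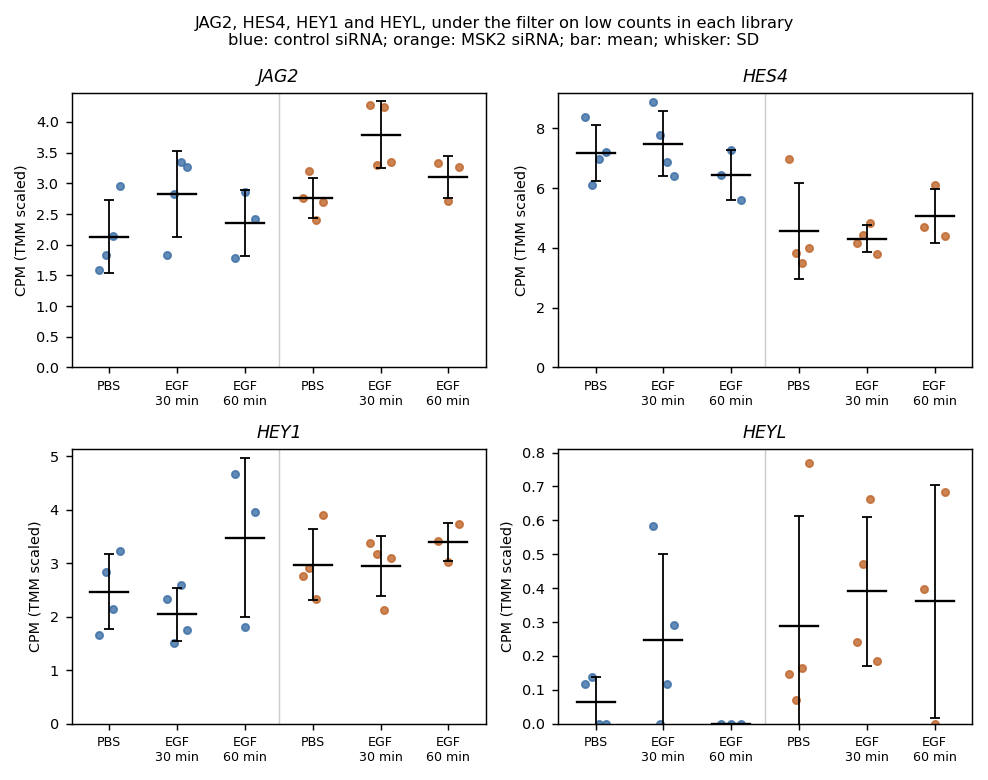
Levels of JAG2, HES4, HEY1 and HEYL in each library as TMM-scaled CPM, drawn as for DLL4 and HES1; SD whiskers that would pass below 0 end at the axis. HES4 at 30 min of EGF was at 3.78 to 4.84 CPM with MSK2 siRNA and 6.40 to 8.90 CPM with control siRNA, and HEYL did not exceed 0.770 CPM.

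HES4, a second HES repressor, did not follow HES1. HES4 (ENSG00000188290, chr1:998962-1000172, minus strand) was at 8.39, 6.09, 6.99 and 7.22 CPM after PBS with control siRNA, at 8.90, 7.76, 6.88 and 6.40 CPM at 30 min and at 6.44, 7.29 and 5.61 CPM at 60 min of EGF. With MSK2 siRNA it was at 6.97, 3.83, 3.48 and 3.997 CPM after PBS, 4.16, 4.44, 4.84 and 3.78 CPM at 30 min, and 4.69, 6.10 and 4.42 CPM at 60 min. The siRNA groups were apart at 30 min, and overlapped after PBS through replicate 1 of the MSK2 group and at 60 min through replicate 2.

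In the edgeR fit without the filter, which took in 48630 genes, the log2 change of HES4 with MSK2 siRNA was -0.67 after PBS (SE 0.20, adjusted p = 0.0245), -0.78 at 30 min (SE 0.20, adjusted p = 0.00268) and -0.36 at 60 min (SE 0.23, adjusted p = 0.654). With EGF in control cells it was 0.07 at 30 min (SE 0.19) and -0.11 at 60 min (SE 0.21), both with an adjusted p of 1. HES4 counts ran from 42 to 142 per library.

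HEY1 and HEYL were low. HEY1 (ENSG00000164683) had 23 to 81 counts per library and ranged from 1.51 to 4.66 CPM with control siRNA and from 2.12 to 3.90 CPM with MSK2 siRNA, with overlap in each of the 8 pairwise comparisons. Without the filter its largest log2 change was 0.77 (SE 0.30, adjusted p = 0.44), between 30 and 60 min of EGF with control siRNA.

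HEYL (ENSG00000163909, chr1:39623435-39639643, minus strand) had 77 counts in all 22 libraries together, and 0 to 16 in any one. All 3 libraries at 60 min of EGF with control siRNA were at 0 counts, which allows up to 3 counts each, or 0.175 to 0.254 CPM. With MSK2 siRNA at that time there were 5, 0 and 9 counts, so the groups overlapped at 0. The fit without the filter gave that comparison an adjusted p of 0.0189, with no fold given because 1 group was at 0.

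DLL4 and HES1 passed the filter through the groups in which they were high: HES1 exceeded 10 CPM in 9 libraries, all with EGF, and DLL4 in 8, of which 7 had EGF. All 8 of these DLL4 libraries had control siRNA, and with MSK2 siRNA DLL4 was at most at 6.68 CPM. Counts over the 6 tested members are therefore a description and lend the changes no support. In the fit without the filter, the calls of both genes at 60 min with either siRNA and of HES1 at 30 min with control siRNA were also made. The calls of DLL4 as lower with MSK2 siRNA at each treatment were made in that fit too. Of the 6, 1 rose at 30 min of EGF with control siRNA (HES1), where 0.614% of the 9770 genes were called. At 60 min 2 of 6 rose (DLL4 and HES1), against a background of 2.65%, and 2 of 6 rose between 30 and 60 min, against 1.8%. With MSK2 siRNA, 2 of 6 rose at 60 min, against 2.16% of genes. At 30 min 0 of 6 passed, against 0.778%, with 4 at an unadjusted p under 0.05, and the exact test and DESeq2 each called 2, HES1 and JAG1.

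Between the siRNAs 2 of 6 members were called at each treatment, with 1 higher and 1 lower each time. The background was 24.8% of all genes after PBS, 30.1% at 30 min and 19.4% at 60 min, so a share of 2 in 6 stood near it. For the difference between siRNAs in the response to EGF, 0 of 6 members passed at either time and 0% of all genes did. At an unadjusted p under 0.05 there was 1 member at 30 min (NOTCH2) and 0 at 60 min, and 661 and 216 of all genes, and DESeq2 called 0 members at both times and 0 and 3 of all genes.

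**Figure D5:**
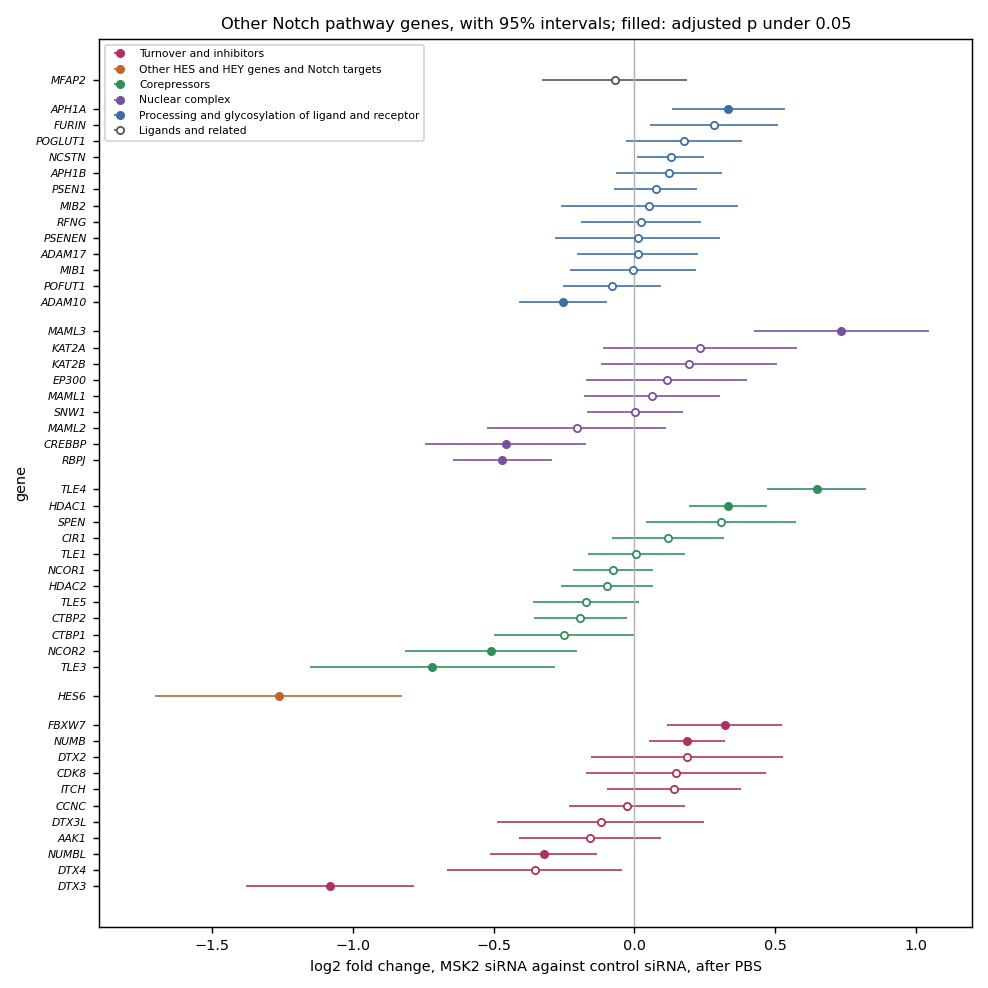
Fitted log2 fold changes between MSK2 siRNA and control siRNA after PBS (x axis, with 95% intervals) of 47 other Notch pathway genes (y axis), colored by role; filled symbols have an adjusted p under 0.05. HES6 and DTX3 were the lowest at -1.26 and -1.08, and MAML3 and TLE4 the highest at 0.74 and 0.65.

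The rest of the pathway was read from a list of 68 other Notch genes, of which 47 were tested. None of the 47 was called by edgeR at 30 or 60 min of EGF with either siRNA, or between 30 and 60 min, and neither the exact test nor DESeq2 called any. At an unadjusted p under 0.05 there were 3 at 30 min and 3 at 60 min with control siRNA, 4 between these times, and 4 and 3 with MSK2 siRNA. The median log2 change of the 47 at 60 min with control siRNA was 0.01, against -0.01 for all genes.

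With MSK2 siRNA, 6 of the 47 rose and 8 fell after PBS, 10 rose and 7 fell at 30 min, and 5 rose and 8 fell at 60 min of EGF. These 14, 17 and 13 genes of 47 stand beside the 24.8%, 30.1% and 19.4% of all genes called in the same comparisons, so their shares were near the background. Only 6 genes were called in the same direction in all 3 comparisons. HES6, DTX3, RBPJ and NUMBL were lower, and TLE4 and HDAC1 were higher. By role after PBS, 1 of 9 genes of the nuclear complex rose and 2 fell, 2 of 12 corepressors rose and 2 fell, 2 of 11 genes of turnover and inhibition rose and 2 fell, and 1 of 13 genes of processing and glycosylation rose and 1 fell. The medians of the 47 were 0.01, 0.04 and 0.06, against 0.00, 0.01 and 0.01 for all genes.

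RBPJ, the DNA binding partner of the Notch intracellular domain, fell from 300 ± 27 CPM (n = 4) with control siRNA to 217 ± 27 CPM (n = 4) with MSK2 siRNA after PBS, a log2 change of -0.47 (SE 0.09, adjusted p = 0.000126). MAML3, a Mastermind coactivator, was higher after PBS (0.74, SE 0.15, adjusted p = 0.000548) and at 30 min of EGF (1.03, SE 0.15, adjusted p = 6.9e-06), while at 60 min the change was 0.43 (SE 0.17, adjusted p = 0.0831). TLE4, a Groucho corepressor that HES proteins recruit, rose by 0.65 (SE 0.09, adjusted p = 1.31e-06), 0.70 (SE 0.08, adjusted p = 3.2e-07) and 0.51 (SE 0.10, adjusted p = 0.000353) in the same order of treatments.

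HES6, a HES protein known to oppose HES1, fell by 1.26 after PBS (SE 0.21, adjusted p = 4.83e-05), from 9.98 ± 1.18 to 4.11 ± 1.54 CPM, by 1.70 at 30 min (adjusted p = 5.67e-07) and by 1.35 at 60 min (adjusted p = 0.000155). The groups did not overlap. DTX3, a Deltex ubiquitin ligase, fell by 1.08 (SE 0.14, adjusted p = 1.64e-06), 0.90 (SE 0.14, adjusted p = 1.83e-05) and 1.01 (SE 0.17, adjusted p = 5.28e-05). NOTCH4, the fourth receptor, was not tested, at 0.653 to 2.42 CPM, and the targets HEY2 and HES5 did not exceed 0.0663 and 0 CPM.

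Among the genes whose pattern was nearest to that of DLL4 were F3, CHAC1, RGCC and GBP1. Likeness was the root mean square difference, over the 5 groups other than control siRNA with PBS, of the mean log2(CPM + 0.5) relative to that group, and it was 0.18 for F3 and 0.29 to 0.49 for the others. F3, which encodes tissue factor, was 1.15 above the resting control level at 60 min of EGF and 1.93 below it with MSK2 siRNA and PBS, where DLL4 was 1.21 above and 2.00 below. With MSK2 siRNA and 60 min of EGF, DLL4 was at -0.85 on this scale and F3 at -0.50, so both remained under the resting control level.

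Nearest to HES1 were SPRY2, RHOB, DUSP1, KLF10 and CSRNP1, at 0.46 to 0.65. SPRY2, a Sprouty protein that dampens growth factor signaling, was 1.96 above the resting control level at 60 min with control siRNA and 2.12 above it with MSK2 siRNA, where HES1 was 2.33 and 2.88 above. HES1 was 0.75 above that level with MSK2 siRNA and PBS, and the 5 genes lay between -0.33 and 0.48. Both lists were chosen for their likeness over these 6 groups and carry no test.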

How the data were processed

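Gene expression was measured by sequencing poly(A)-primed cDNA of IMR90 cells (SMART-Seq v4 and Nextera XT, which do not mark strand), in paired reads. The authors demultiplexed with bcl2fastq 2.20.0.422, aligned to hg38 with STAR 2.7.9a, used HTSeq 0.13.5 to assign reads to genes, and deposited the raw counts of each library. The annotation release and the strand setting of the counting are not given in the sources used here. The 5 summary lines of each file, 18.3% to 22.4% of its total, were left out.

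The counts were fitted in R 4.3.3 with edgeR 4.0.16 (TMM, quasi-likelihood, 1 fit of 6 group means over 22 libraries, a minimum of 10 CPM exceeded in 2 or more libraries, Benjamini-Hochberg over 9770 genes). The quasi-likelihood test was tried on simulated counts of the genes past the filter, for 4 of the 10 comparisons. The differences between siRNAs in the response to EGF were not among those simulated. The exact test and filter of the study's methods and DESeq2 1.42.0 were among the alternatives. Libraries were grouped by their labels, and the labels do not say that replicates were separate cultures, so p-values measure the spread between libraries of 1 line. Pairs of libraries of a group differed by more than sampling noise (chi-square per degree of freedom of 5.05 or more). Same-numbered libraries deviated together in 1 comparison, of MSK2 with control siRNA after PBS (correlations of 0.14 to 0.50 over 4 pairs), from the data and not from the labels.

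Gene positions and exon lengths came from GENCODE on GRCh38, and promoter sequences from RefSeq. Named genes were the 10 members, RPS6KA4, of the pathway list those among the 4 smallest p per comparison (HDAC1, NUMBL, NOTCH4, HEY2 and HES5 were named after their values were seen), and the 5 genes nearest in pattern to DLL4 and to HES1, of which 1 is not reported here. Markers were compared for 5 cell types; pericyte, smooth muscle and epithelial markers summed to 203 to 288 and 48.3 to 70.1 CPM per library, and RGS5 was left out because its symbol names more than 1 row. The members and lists were chosen with earlier results of these data known.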

Additional observations from a re-analysis of the deposited data

Results flagged for a closer look

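Within groups of 4 libraries, 3 values stood far from the rest of their group by Dixon's 95% criterion for the gap to the nearest library, out of 40 groups looked at, of which chance would mark about 1 in 20. NOTCH2 was at 55.8 CPM in replicate 4 with control siRNA and PBS, where the other 3 libraries were at 110 to 116 CPM. HES4 was at 6.97 CPM in replicate 1 with MSK2 siRNA and PBS, against 3.48 to 3.997 CPM in the others. HEYL was at 0.770 CPM, or 16 counts, in replicate 4 with MSK2 siRNA and PBS, where the others had 1 or 2 counts.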

How the results depend on the processing

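Over 1002 fitted values of the 6 tested members under an alternative, 982 kept their side of the threshold, 5 lost a call, 15 gained one and none that was called changed sign; 34 that were called in neither fit changed sign. The calls of DLL4 at 60 min of EGF and between siRNAs, of HES1 with EGF in control cells, and of NOTCH2 at 30 min held under every alternative. The number of members called at 30 min of EGF with MSK2 siRNA, 0, became 2 in the exact test and in DESeq2, 1 with library sizes only and 3 with no filter. It stayed 0 with filterByExpr. With no filter it became 4 between siRNAs after PBS and 1 for the difference in response at 30 min. Leaving out single libraries gave 0 to 1 members at 30 min of EGF with MSK2 siRNA, 1 to 2 between 30 and 60 min with control siRNA, 1 to 2 between siRNAs at 60 min, and 0 to 1 for the difference in response at 30 min. Without replicate 4 of control siRNA and PBS, NOTCH2 passed in the last of these. The replicate block changed no member's call: with it DLL4 was at -2.20 between siRNAs after PBS (adjusted p = 3.2e-09) and HES1 at 0.87 (0.00203). Numbering paired the libraries only between siRNAs after PBS. Over all genes, calls without the filter were 216 against 76 at 30 min of EGF with MSK2 siRNA, 297 against 176 between 30 and 60 min with control siRNA, and 49 and 4 against 0 for the difference in response at 30 and 60 min, where DESeq2 gave 3 and the block 2 at 60 min. For these calls the cause of a change was not tested. The 4 members under the filter had at most 142 counts in a library, which limits what could be detected.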
